A study of Mus musculus with 10 samples.

Results

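The genes described here are 8 components of the cytotoxic granule and its surroundings, chosen by name: the granzymes Gzma, Gzmb, Gzmc and Gzmk, perforin (Prf1), the granzyme B inhibitor Serpinb9, the granule proteoglycan serglycin (Srgn) and the lysosomal membrane protein Lamp1. All 8 were among the 19048 genes measured in both deposited tables, through 50 exon-level probe sets and 8 gene-level probe sets, and 7 of them were among the 12485 genes bright enough to be tested. RNA came from CD3+ T cells of the spleens of male mice on the Balb/C background aged 12 weeks, activated for 4 days through CD3 (antibody coated on the plate) and CD28 (antibody in solution). Affymetrix arrays of 5 WT mice (WT1 to WT5) were compared with those of 5 KLF13 KO mice (KO1 to KO5), which lack the zinc-finger transcription factor KLF13. The labels say neither how the knockout allele was made nor whether it is limited to T cells. They name a mouse for each array, so the spread that the tests measure includes that between mice. It also holds shifts of whole arrays and unlike KO differences between sets of arrays, both given below.

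Cytotoxic lymphocytes kill a bound cell by releasing granules. Perforin opens the target membrane, granzymes enter through it and cleave proteins inside, serglycin packs both in the granule as a scaffold of charged sugar chains, and Serpinb9 protects the killer cell from its own granzyme B. Lamp1 lines the granule membrane and appears on the cell surface upon release. In T cells granzymes and perforin are switched on during the days after stimulation, most strongly in CD8+ cells. RNA of a whole CD3+ culture was measured, so fewer cells of a type and less RNA per cell cannot be told apart.

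The values are log2 RMA signals, in which 1 unit is a 2-fold change, and they come in 3 scale sets that can be compared only within themselves: replicate 1 (exon-level table), replicates 2 and 3 (exon-level table) and replicates 4 and 5 (gene-level table). Array medians were 5.21 and 5.23 in the first set, 6.25 to 6.43 in the second and 4.18 to 4.30 in the last. In replicates 2 and 3 bright genes were low in the KO arrays as a whole: the brightest 5% of exon-level genes had a median KO minus WT difference of -0.78, against -0.18 in replicate 1 and -0.05 for the brightest 5% of gene-level genes in replicates 4 and 5. All 7 measured markers of T cells (such as Cd3e, Cd3d and Cd2) were bright enough to be tested, with median differences of -0.31, -0.67 and 0.02 in the 3 sets. Klf13 itself, the targeted gene, was at -0.62, -0.81 and -1.05 in the 3 sets and fell over all arrays (-0.86 ± 0.12, SE, 5 WT against 5 KO, limma adjusted p = 0.0126). That adjusted p was 0.0507 to 0.0689 without WT2, WT3, WT4, KO4 or KO5, and 1 with the table in place of the scale sets as block.

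Over all arrays, with the scale sets as a block, the values of all 7 tested members were lower in the KO arrays. So were 63.5% of all tested genes. Of the 7 members Gzmb alone passed the test (limma, adjusted p under 0.05). Among all tested genes 0.585% were called, 0.489% as lower and 0.0961% as higher. In the gene-level table alone (2 WT against 2 KO) Serpinb9, Gzmb and Gzmc fell, 3 of the 7, where 2.72% of all genes were called, 1.99% as lower and 0.721% as higher. In the exon-level table alone (3 WT against 3 KO) none of the 7 passed, as for all genes (0 called, 1019 at an unadjusted p under 0.05). The 7 genes had a median difference of -0.71 over all arrays, beside -0.10 over all genes, and of -0.53 in the gene-level table, beside -0.01. By set the median was -0.29 in replicate 1 and -0.76 in replicates 2 and 3. Every KO array lay below every WT array of its set, in all 3 sets, for Gzmb, Gzmc and Lamp1, which was true of 10.8% of all genes, while 1.63% had every KO array above. Taken alone, replicates 2 and 3 had such a gap downwards for 43.1% of all genes and replicates 4 and 5 for 26%.

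**Figure D1:**
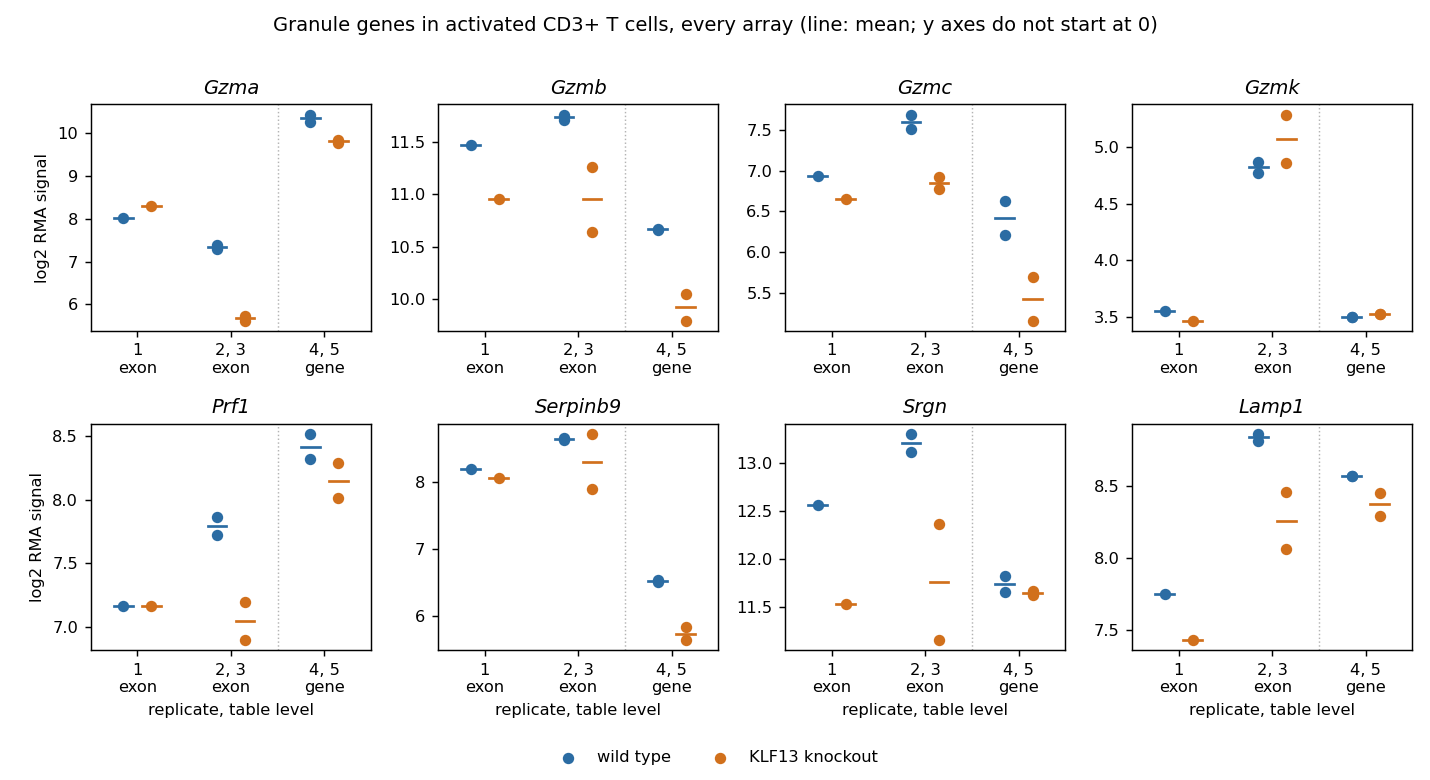
Log2 RMA signal (y axis) of each granule gene in every array, by scale set (x axis, replicate numbers and table level), with WT in blue, KLF13 KO in orange and lines at the group means. Gzmb, Gzmc and Lamp1 have all KO arrays under the WT arrays of their set, while KO1 lies above WT1 for Gzma.

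Granzyme B (Gzmb), the serine protease that cleaves after aspartate and activates caspases in the target cell, read 11.47 in WT1 and 10.95 in KO1. In the next set WT2 and WT3 gave 11.76 and 11.71, against 10.64 and 11.26 for KO2 and KO3. In the gene-level table the values were 10.66 and 10.67 in WT4 and WT5 and 10.05 and 9.80 in KO4 and KO5. All 5 KO arrays were thus below the WT arrays beside them, by differences of -0.52, -0.78 and -0.74 in the 3 sets. Gzmb fell to 0.611 of its WT level over all arrays (-0.71 ± 0.14, SE, 5 against 5, limma adjusted p = 0.0470) and to 0.598 in the gene-level table (-0.74 ± 0.13, 2 against 2, adjusted p = 0.0248). The call over all arrays was lost without any single array other than KO3 (adjusted p 0.0652 without KO2 to 0.185 without WT2, against 0.00168 without KO3) and after quantile normalization (-0.46, adjusted p = 0.346). In the gene-level table it held after quantile normalization (0.0286) but not without KO5 (0.101).

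Gzmc, a granzyme encoded next to Gzmb in the gene order of the RefSeq assembly GRCm38.p6, with no coding gene between them, read 6.94 in WT1 and 6.65 in KO1. It was at 7.51 and 7.69 in WT2 and WT3, against 6.92 and 6.77 in KO2 and KO3. WT4 and WT5 gave 6.63 and 6.22, and KO4 and KO5 gave 5.70 and 5.16. No KO array reached a WT array of its set. Gzmc fell to 0.503 of its WT level in the gene-level table (-0.99 ± 0.20, SE, 2 against 2, limma adjusted p = 0.0353), while its difference over all arrays did not pass (-0.76 ± 0.16, adjusted p = 0.0636, or 0.0213 without KO3). The gene-level call was lost without WT4 (0.0706) or KO5 (0.0803). The granzymes of this cluster are close copies of each other, so their probes can share signal and the split between them is uncertain.

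Granzyme A (Gzma), the trypsin-like protease of the family, differed in sign between sets. It was higher in KO1 (8.29) than in WT1 (8.03). In the second set WT2 and WT3 read 7.28 and 7.39 and KO2 and KO3 read 5.62 and 5.74 (-1.66), and in the gene-level table WT4 and WT5 read 10.43 and 10.27 and KO4 and KO5 read 9.78 and 9.85 (-0.53). The groups did not overlap in those 2 sets and ran the other way in replicate 1. Gzma did not pass over all arrays (-0.82 ± 0.24, SE, 5 against 5, limma adjusted p = 0.194) or in the gene-level table (-0.53 ± 0.13, 0.0642, or 0.0426 without WT5). A direct test of whether its difference was unlike between the tables gave -0.48, with a 95% interval of -1.59 to 0.62 (exon-level minus gene-level, adjusted p = 0.882). It was -1.12 without WT1 or KO1 (adjusted p = 0.254) and -0.27 without WT3 or KO2 (0.999 and 0.775).

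Gzmk, a further trypsin-like granzyme and the gene next to Gzma in that order, was dim as a gene-level value and as a mean over its 8 exon-level probe sets. Its exon-level mean of 4.47 and gene-level mean of 3.51 were under the limits for testing, 4.74 and 3.54 (30th percentile of genes). WT1 and KO1 read 3.55 and 3.47. WT2, WT3, KO2 and KO3 read 4.87, 4.77, 4.86 and 5.28. The gene-level arrays were within 3.50 to 3.53 in both genotypes. The gene was therefore not tested, but 2 of its 8 exon-level probe sets were. Probe set 10412223 read 6.42 in WT1 and 6.55 in KO1, then 7.71 and 7.64 for WT2 and WT3 and 7.51 and 7.85 for KO2 and KO3, so the genotypes overlapped. Its difference was 0.05 ± 0.27 (SE, 3 against 3, limma adjusted p = 0.946), and that of probe set 10412221 was 0.13 ± 0.28 (adjusted p = 0.860). Neither passed.

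Perforin (Prf1), the pore-forming protein, read 7.16 in both WT1 and KO1. WT2 and WT3 gave 7.72 and 7.86, against 7.19 and 6.89 for KO2 and KO3. In the gene-level arrays WT4 and WT5 gave 8.51 and 8.32, against 8.01 and 8.29 for KO4 and KO5. The KO arrays were below the WT arrays in both larger sets, with KO5 close to WT5. The difference over all arrays was -0.41 ± 0.15 (SE, 5 against 5, limma adjusted p = 0.259) with a 95% interval of -0.73 to -0.09, and that in the gene-level table was -0.27 (-0.59 to 0.06, adjusted p = 0.416). Neither passed.

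Serpinb9, the serpin that blocks granzyme B, stood out in the gene-level table, where WT4 and WT5 read 6.51 and 6.53 and KO4 and KO5 read 5.83 and 5.63. There it fell to 0.578 of its WT level (-0.79 ± 0.13, SE, 2 against 2, limma adjusted p = 0.0172, or 0.0572 without KO5). The exon-level arrays gave 8.19 and 8.07 in WT1 and KO1, 8.63 and 8.67 for WT2 and WT3, and 8.72 and 7.90 for KO2 and KO3. KO2 was thus above both WT arrays of its set and KO3 below them. Over all arrays the value was -0.48 ± 0.17 (adjusted p = 0.257). The difference between the tables was 0.52, with a 95% interval of -0.19 to 1.24 (exon-level minus gene-level, adjusted p = 0.872). It was 0.31 without KO2 (limma adjusted p = 0.562) and 0.78 without KO3 (0.051). Several serpins of this clade are close copies too, and their probes can share signal.

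Serglycin (Srgn) showed the opposite distribution over the tables. It read 12.56 in WT1 and 11.53 in KO1, 13.11 and 13.30 for WT2 and WT3, and 11.15 and 12.36 for KO2 and KO3. In the gene-level table WT4 and WT5 were at 11.66 and 11.82 and KO4 and KO5 at 11.62 and 11.66, where the groups overlapped. The exon-level difference was -1.31 ± 0.31 (SE, 3 against 3, limma adjusted p = 0.418, or 0.00189 without KO3) and the gene-level difference -0.10 ± 0.13 (2 against 2, adjusted p = 0.781). The difference between the tables was -1.21 (95% interval -2.14 to -0.28, unadjusted p = 0.0155, adjusted p = 0.872, or -1.52 and 0.0198 without KO3). Srgn and Gzmb were the 2 members among the brightest 5% of exon-level genes, whose median differences of -0.18 and -0.78 in replicate 1 and in replicates 2 and 3 stand above. The part of that shift in the values of Srgn and Gzmb was not tested beyond the quantile normalization, which gave -0.95 and -0.32 in the exon-level table.

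Lamp1, found on lysosomes of most cells as well as on cytotoxic granules, had small values of 1 sign. It read 7.75 in WT1 and 7.43 in KO1, 8.86 and 8.82 for WT2 and WT3, and 8.46 and 8.07 for KO2 and KO3. WT4 and WT5 were both at 8.57, and KO4 and KO5 were at 8.45 and 8.30. The KO arrays were lower in each set without overlap, but the difference did not pass over all arrays (-0.37 ± 0.12, SE, 5 against 5, limma adjusted p = 0.235) or in the gene-level table (-0.20 ± 0.13, 0.496). The 95% interval over all arrays was -0.65 to -0.10.

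**Figure D2:**
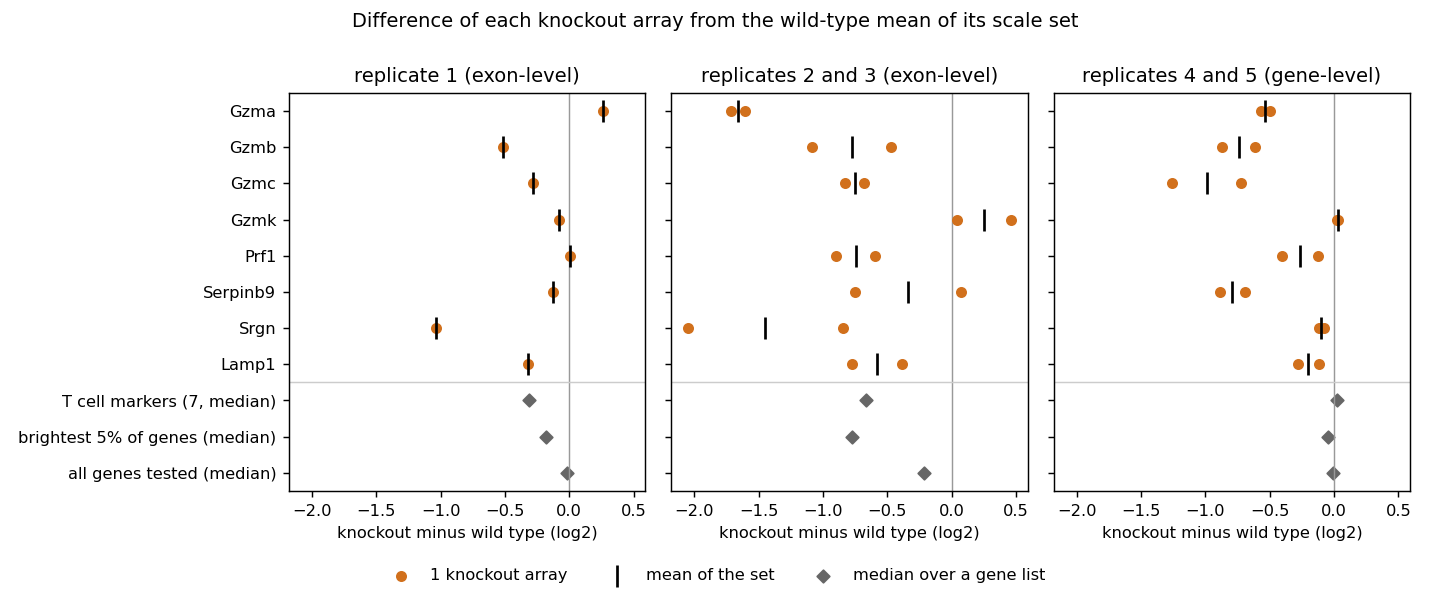
KO minus WT (x axis, log2) for each KO array against the WT mean of its scale set (orange points), with the set's mean (black bars) for each granule gene, and medians over T cell markers, the brightest 5% of genes and all tested genes (grey diamonds). In replicates 2 and 3 the T cell markers and bright genes lie at -0.67 and -0.78, near many granule genes, whereas in replicates 4 and 5 they lie at 0.02 and -0.05 and Gzmb, Gzmc and Serpinb9 at -0.74, -0.99 and -0.79.

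**Figure D3:**
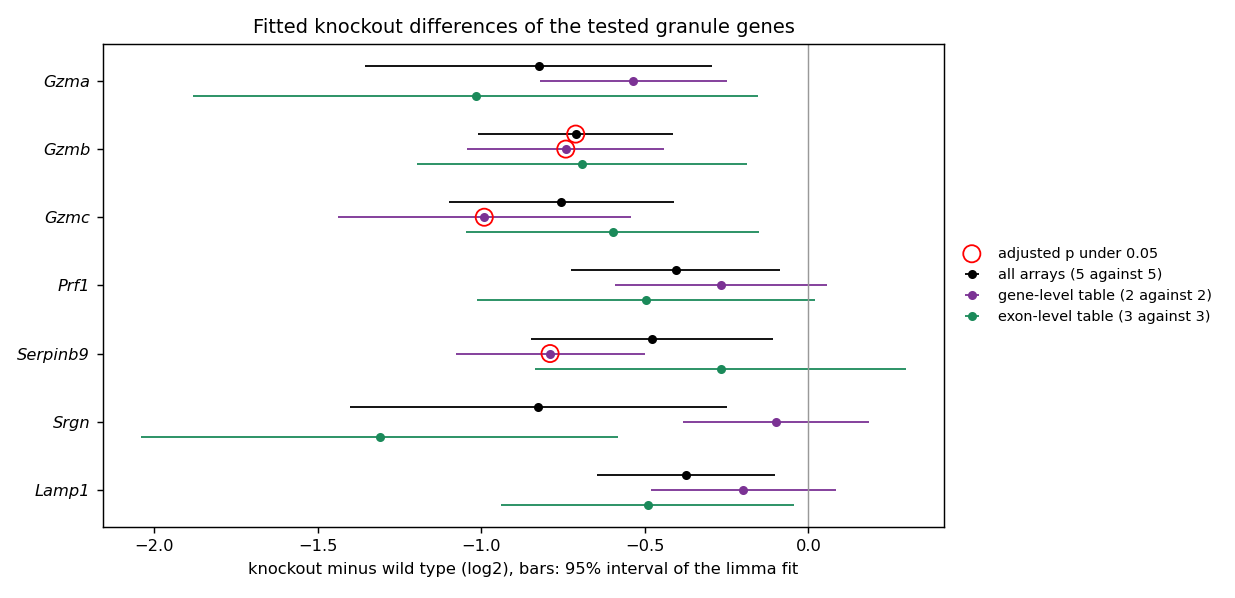
Fitted KO minus WT difference (x axis, log2) of the 7 tested granule genes with 95% intervals, over all arrays, in the gene-level table and in the exon-level table. Red circles mark an adjusted p under 0.05, reached by Gzmb over all arrays and by Gzmb, Gzmc and Serpinb9 in the gene-level table.

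The exon-level table resolves each gene into probe sets along its transcript, which share arrays and RNA and are not replicates. Of the 50 probe sets 39 were lower in KO1 than in WT1 and 38 were lower in KO2 and KO3 than in WT2 and WT3, where 52.0% and 56.4% of all named probe sets were lower. Of the 42 that were tested 0 passed in limma, as for all 148468 probe sets tested (0%). At an unadjusted p under 0.05 were 8 of these 42 probe sets and 6641 of all. Those 8 probe sets belonged to Gzma, Gzmb, Gzmc and Srgn. The 7 probe sets of Gzmb did not move alike in replicates 2 and 3. Its 3 brightest, at 13.23 to 13.75 in the WT arrays, differed by -1.75 to -1.55, and the other 4, at 7.95 to 12.17, by -0.48 to 0.18. In replicate 1 the same 3 differed by -0.98 to -0.77 and the others by -0.85 to 0.37. The brightest 5% of all probe sets had median differences of -0.76 in replicates 2 and 3 and -0.17 in replicate 1, and the part of this shift in the Gzmb pattern was not tested.

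For Gzma the 4 probe sets kept together within each set of arrays: all 4 were higher in KO1 (0.13 to 0.56) and all 4 lower in KO2 and KO3 (-2.29 to -0.28), the smallest change belonging to probe set 10412216, which was under the limit for testing. All 3 probe sets of Srgn were lower in both exon-level sets, by -1.25 to -0.90 in replicate 1 and -1.64 to -1.34 in replicates 2 and 3. For Prf1 the 3 probe sets lay at -0.90 to -0.58 in replicates 2 and 3 and at -0.28 to 0.31 in replicate 1. Gzmc and Lamp1 each had 1 probe set that ran against the others in replicates 2 and 3. Probe set 10420307 of Gzmc was at 1.22 and probe set 10570347 of Lamp1 at 0.77, with KO3 at 10.12 and 10.65 and KO2 at 8.05 and 8.96, while the lowest of these genes were at -2.02 and -1.25. The 9 probe sets of Serpinb9 spread from -1.24 to 0.37 and the 8 of Gzmk from -0.61 to 1.17.

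**Figure D4:**
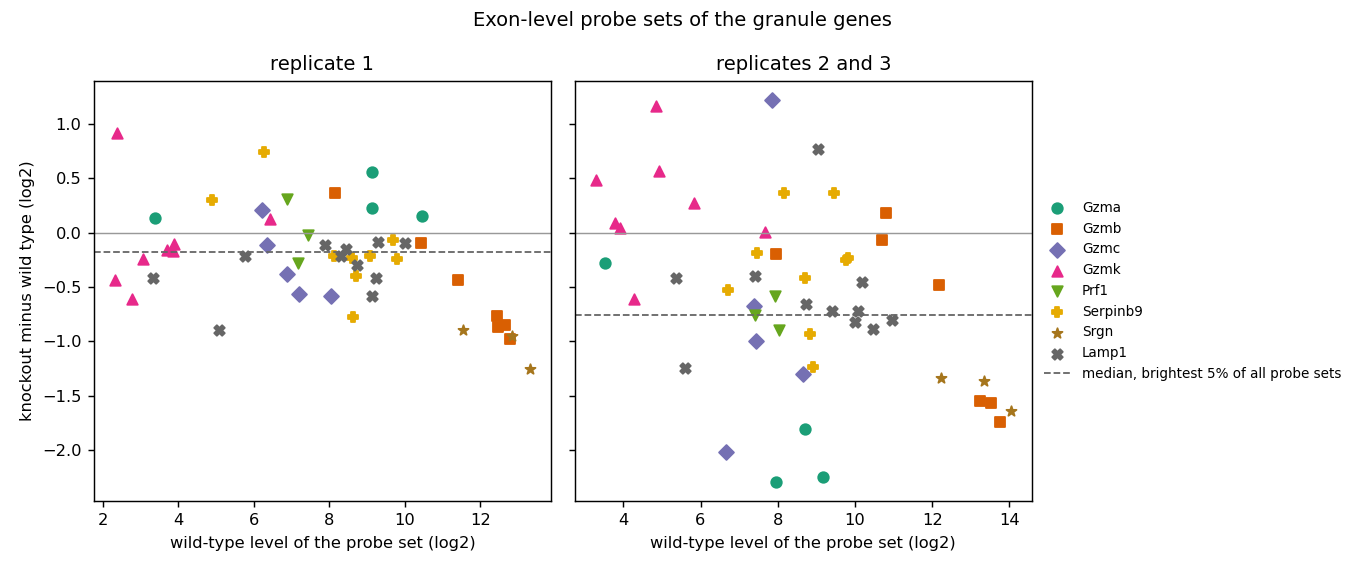
KO minus WT (y axis, log2) of each exon-level probe set of the granule genes against its WT level (x axis, log2), in replicate 1 (left) and in replicates 2 and 3 (right). The dashed lines give the median of the brightest 5% of all probe sets, and the brightest Gzmb and Srgn probe sets lie under them in both panels.

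Windows around the transcription start are shown for Gzmb, Gzmc and Serpinb9, the 3 members that fell in the gene-level table. They run 5′ to 3′ from 250 bases before to 50 bases after the start and come from RefSeq, build GRCm38.p6, which had windows for all 8 members. Capitals mark CACCC or its reverse complement GGGTG, the core letters of the sites that KLF factors are known to bind.
Gzmb (chr14:56262285-56262584, minus strand): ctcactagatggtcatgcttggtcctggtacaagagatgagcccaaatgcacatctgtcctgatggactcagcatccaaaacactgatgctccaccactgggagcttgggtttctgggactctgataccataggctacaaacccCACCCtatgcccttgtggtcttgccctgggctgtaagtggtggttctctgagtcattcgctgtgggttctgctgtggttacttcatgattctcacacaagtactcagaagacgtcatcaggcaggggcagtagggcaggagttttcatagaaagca
Gzmc (chr14:56234608-56234907, minus strand): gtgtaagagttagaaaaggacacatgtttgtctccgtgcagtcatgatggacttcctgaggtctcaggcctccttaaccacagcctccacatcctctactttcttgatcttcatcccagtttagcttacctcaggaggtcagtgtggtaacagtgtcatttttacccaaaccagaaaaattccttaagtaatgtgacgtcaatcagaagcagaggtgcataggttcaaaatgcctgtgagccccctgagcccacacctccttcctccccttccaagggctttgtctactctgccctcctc
Serpinb9 (chr13:33004291-33004590, plus strand): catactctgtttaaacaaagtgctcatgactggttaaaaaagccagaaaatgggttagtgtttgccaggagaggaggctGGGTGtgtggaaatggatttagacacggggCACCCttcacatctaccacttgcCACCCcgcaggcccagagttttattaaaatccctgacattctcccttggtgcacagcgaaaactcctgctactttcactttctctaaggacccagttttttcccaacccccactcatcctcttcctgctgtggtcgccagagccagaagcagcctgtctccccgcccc
Gzmb held 1 such match, with its first base at -106 from the start, Serpinb9 held 3 and Gzmc held 0. Of all 32851 windows of this length 57.5% held at least 1 match, as did 8 of the 9 windows of the members. By gene, 7 of the 8 members had a match in at least 1 window, a count without a share over all genes beside it. TGTGGT or its reverse complement ACCACA, the core of RUNX sites, occurred 2 times in Gzmb, 2 times in Gzmc and 1 time in Serpinb9, and in 16.8% of all windows. Gzma, Prf1, Lamp1 and 1 of the Srgn windows also held 1 RUNX match each, while Gzmk and the other Srgn window held 0. RUNX matches were thus not limited to the 3 genes shown. Other motifs were scanned too and are not described here. A match is a description of these letters and not of a bound site.

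The other genes of the pathway were taken from lists named beside the members, with these results already known in part. Of 6 other granzymes only Gzmd and Gzmm were bright enough in both tables, and 0 passed over all arrays or in the gene-level table. Gzmd was at -1.39 ± 0.33 over all arrays (SE, 5 against 5, limma adjusted p = 0.108, or 0.0441 without WT5), with WT4 and WT5 at 6.30 and 4.26 and KO4 and KO5 at 3.77 and 3.79. The 2 WT arrays were thus farther apart than WT5 and the KO arrays. Of 16 tested genes of granule maturation and content 1 fell in each of the 2 fits, Nkg7, a granule membrane protein (-2.20 ± 0.14, adjusted p = 5.94e-05), and the list's median was -0.24 over all arrays and -0.07 in the gene-level table.

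Of 14 genes of granule release, which tether and fuse the granule with the cell membrane, 0 passed in either fit. Their median was -0.28 over all arrays and -0.12 in the gene-level table, and the smallest p belonged to Sytl3, a synaptotagmin-like protein (-0.54 ± 0.17, SE, 5 against 5, limma adjusted p = 0.218). Of 13 genes that build glycosaminoglycan chains, such as those on serglycin, 0 passed in either fit, with Chsy1, a chondroitin synthase, at -0.49 ± 0.11 (adjusted p = 0.106, or 0.0235 without KO3). Of 3 other tested serpins of the B clade, 0 passed over all arrays and 1 fell in the gene-level table, Serpinb6b (-0.96 ± 0.13, 2 against 2, adjusted p = 0.0102), which was at -0.52 over all arrays (adjusted p = 0.194).

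Of 16 tested transcription factors known for the cytotoxic programme, 4 fell over all arrays and 4 in the gene-level table, against 0 that rose. They were Batf, an AP-1 factor of activated T cells (-1.17 ± 0.15 over all arrays, SE, 5 against 5, limma adjusted p = 0.00827), Irf4, its partner in DNA binding (-0.88 ± 0.13, 0.0173), Id2, an inhibitor of E proteins (-0.97 ± 0.16, 0.0306), and Rbpj, the DNA-binding factor of Notch signalling (-0.84 ± 0.15, 0.0320). The gene-level values of these 4 were -1.12, -0.87, -0.85 and -0.61. The list's median was -0.22 over all arrays, with 12 of the 16 lower, and -0.03 in the gene-level table, with 9 lower. Among all tested genes 63.5% were lower over all arrays and 52.5% in the gene-level table. Of all tested genes 0.489% were called lower over all arrays and 1.99% in the gene-level table. Tbx21, Eomes and Runx3, which bind granzyme and perforin genes in CD8+ T cells, were at -0.08, 0.02 and 0.04 (limma adjusted p = 0.694, 0.937 and 0.848). Prdm1 and Stat5a of the same list were at -0.68 and -0.62 over all arrays (limma adjusted p = 0.0725 and 0.198). In the gene-level table they were at -0.44 and -0.17. These 5 genes were named after their values were seen. The call of Batf was lost with the table in place of the scale sets as block (0.466) and without WT4 (0.0512) or KO4 (0.0505), and those of Irf4, Id2 and Rbpj were lost in 10, 13 and 15 of the 21 alternative settings, with adjusted p of up to 0.0930, 0.124 and 0.139 without single arrays. These ranges covered WT2, WT3, WT4, WT5, KO4 and KO5 for Irf4, also WT1 and KO1 for Id2, and also KO2 for Rbpj.

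Markers of cells that could carry granule genes were set beside these values. CD8 markers were not lower in the gene-level table: Cd8a and Cd8b1 were at 0.33 and 0.21 there, against -0.09 and -0.21 in replicate 1 and -0.75 and -0.05 in replicates 2 and 3. Cd4 was at 0.23, -0.81 and 0.01 in the 3 sets. Of 7 measured NK cell markers 2 were bright enough to be tested (Klrg1 and Fcer1g), while Ncr1, Klrb1c and Klra8 were under the limit. The NK list's mean level was 3.29 and 3.28 in WT4 and WT5, and 3.24 and 3.34 in KO4 and KO5, and in the exon-level arrays 3.32, 4.44 and 4.42 in WT1 to WT3 and 3.39, 4.49 and 4.77 in KO1 to KO3. Of 8 mast cell and basophil markers 3 were tested (Cpa3, Tpsb2 and Kit), of 8 neutrophil and myeloid markers 1 (Csf1r) and of 5 B cell markers 2 (Cd79b and Pax5), and none of these passed over all arrays. Kit, a stem cell factor receptor, was called higher in the gene-level table, where it was at 0.75 and 0.721% of all genes were called higher. It was at 0.41 in replicate 1, -0.11 in replicates 2 and 3 and 0.34 over all arrays (limma adjusted p = 0.333). Cpa3 and Tpsb2 were lower in the gene-level table, at -0.21 and -0.10. Ly6g, a neutrophil marker under the limit in the exon-level table, read 6.21 and 6.28 in WT4 and WT5 and 3.96 and 3.85 in KO4 and KO5. It was at -0.88 in replicate 1 and -0.18 in replicates 2 and 3. The other markers of its list did not share this gene-level value: Lyz2 was at 0.55, Csf1r at 0.21 and Itgam at -0.15. The median difference of the 8 neutrophil and myeloid markers was -0.11, 0.28 and -0.03 in the 3 sets. Mean levels of the mast cell list were 4.07 and 3.79 in WT4 and WT5 and 3.97 and 3.93 in KO4 and KO5, and 4.09, 4.86 and 4.82 in WT1 to WT3 against 4.23, 5.23 and 5.11 in KO1 to KO3. The part of any of these cells in the granule gene values was not tested.

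The genes whose values ran most like those of Gzmb and Prf1 over the 10 arrays, after each scale set's mean was subtracted, were found by Pearson's r, given as a description. For Gzmb these were Atox1, a copper chaperone (r = 0.967), Acsf2, an acyl-CoA synthetase (0.953), and Ckb, the brain-type creatine kinase (0.951). For Prf1 they were Yars, a tyrosyl-tRNA synthetase (0.991), Capn2, a calpain subunit (0.987), and Cers4, a ceramide synthase (0.985). Among the members themselves Gzma and Prf1 were at 0.922 and Gzmb and Gzmc at 0.844, whereas Srgn and Serpinb9 were at 0.07. The points share the genotype difference and the array-wide shifts given above.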

How the data were processed

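Log2 RMA signals were deposited by the authors as 2 tables, an exon-level one (WT and KLF13 KO replicates 1 to 3) and a gene-level one (replicates 4 and 5). The submitters' processing notes name RMA, without a version or which arrays were normalized together. Probe sets that the platform annotation pairs with 1 gene were kept, with older symbols updated through RefSeq (GRCm38.p6). Exon-level probe sets were averaged per gene; the brightest gene-level probe set was taken. Tested were genes whose mean log2 reached the 30th percentile in both tables. Exon-level arrays with a median over 0.5 under the highest formed a scale set of their own. Differences were fitted with limma 3.58.1 (R 4.3.3; lmFit, eBayes, 2-sided, Benjamini-Hochberg adjusted over all genes tested, threshold 0.05), with scale sets as a fixed block; the tables were also fitted alone, and genotype by table as an interaction. The fits were tested on simulated data. Named were all members, Klf13, up to 4 passing genes of each pathway list or else the one of smallest p, the 3 genes most like Gzmb and Prf1, and the lowest and highest probe set of each member. The members and lists were chosen with earlier results of these data known. The main fits did not pair arrays by replicate number. Deviations of same-numbered arrays from their group means correlated at -0.42 (replicates 2 and 3) and -0.24 (replicates 4 and 5) across genes. The 2 deviations in each group mirror each other and hold shifts of whole arrays. These values therefore cannot show whether same-numbered mice were paired. Precision is limited by how few arrays there are.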

Additional observations from a re-analysis of the deposited data

Results flagged for a closer look

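Gzma was higher in the KO array of replicate 1 (0.27 log2 over WT1) and lower in all 4 other KO arrays; whether replicate 1 differs from the other sets was not tested, as it holds 1 array per genotype. Prf1 was at 0.0040 in replicate 1, on the other side of 0 from the other 4 KO arrays, a difference also not tested. Gzmk, whose mean was too dim to be tested, was at 0.25 in replicates 2 and 3 and 0.026 in replicates 4 and 5 but at -0.08 in replicate 1, not tested either. KO3 stood apart from the other KO arrays for Gzmk, at 0.46 above the WT mean of its set. All 8 members were checked in this way, and Gzmk alone was flagged. Chance sets 1 array apart like this in about 5% of groups of like values. The KO differences here come from 3 scale sets, so that share is a rough guide.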

How the results depend on the processing

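The number of genes called over all arrays, 73, was 35 after subtraction of array medians, 31 with the median of probe sets, 36 with that and quantile normalization, 4 with the table as block and 23 with the replicate block; without single arrays it was 12 (KO4) to 362 (KO3). In the gene-level table the count of 339 became 517 with trend and robust eBayes and 660 with the replicate block, and was 193 (KO4) to 529 (WT5) without single arrays. With the numbers crossed, chosen after seeing the negative correlation of deviations, it was 938. The exon-level count of 0 became 48 with the replicate block and 0 to 426 without single arrays. Probe sets called were 0 to 101 and genes called in the interaction 0 to 121 without single arrays, the highest count in each of these exon-level ranges without KO3. Gzmb passed over all arrays in 4 of 21 alternatives (adjusted p 1 with the table as block, 0.105 with the replicate block, 0.115 with trend and robust eBayes, 0.0549 with no filter, 0.165 with the median of probe sets, 0.0582 with bright probe sets alone, 0.573 with median and quantile together); none of the 7 tested members changed sign over all arrays. Without KO3, Gzmb passed in the exon-level table (0.00893). With the replicate block Gzma passed in the gene-level table (0.0338) and Srgn in the exon-level table (0.0318), and Irf4 (0.0547), Id2 (0.0543), Rbpj (0.1) and Ckb (0.117) did not pass over all arrays. The difference between the tables changed sign for Gzmb, from 0.05 to -0.0030 after subtraction of array medians and to -0.10 to 0.25 without single arrays, and for Lamp1, from -0.29 to 0.086 with both median and quantile settings together. The cause of these changes was not tested. Signal near background limits the Gzmk mean, since 6 of its 8 exon-level probe sets were under the limit for testing.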
